A study of Mus musculus with 6 samples.

Results

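Expression of 10 secreted or membrane-bound metalloproteases and metalloprotease inhibitors was described in mouse cells of livers carrying human hepatocellular carcinoma (HCC). The set held 3 ADAM proteases (Adam8, Adam12 and Adam19), 4 ADAMTS proteases (Adamts1, Adamts4, Adamts9 and Adamts12) and 3 tissue inhibitors of metalloproteases (Timp1, Timp2 and Timp3). They are 10 of the 56884 genes in the mouse count table, and all 10 were among the 18018 genes whose counts summed to 10 or more. The genes were chosen by name after their counts in the siAATF and siControl libraries had been seen. Their differences between those groups are therefore given as a description, and where calls of these genes are printed they are not read as a test.

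All 6 libraries came from livers of athymic male BALB/c (nu/nu) mice in which QGY-7703 cells, an established human HCC line, were implanted when the mice were, per the labels, 6 weeks old. Athymic mice lack mature T cells and keep macrophages, neutrophils, endothelium and fibroblasts. After 1 week an adeno-associated virus of serotype 8 (AAV8) was given through the tail vein, and the mice were followed for 3 weeks more. The 3 siControl libraries, labelled WT, came from mice given the AAV8 with a control sequence, and the 3 siAATF libraries, labelled KD, from mice given the AAV8 against mouse Aatf, the apoptosis antagonizing transcription factor. Both vectors used the thyroxine-binding globulin promoter, which is active in hepatocytes. The labels do not say that each library is a separate mouse.

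ADAM proteins are mostly membrane-anchored proteases that cut the outer part of growth factors, cytokines and adhesion receptors from the cell surface, a step called shedding. ADAMTS proteins are secreted relatives with thrombospondin repeats that act in the extracellular matrix on proteoglycans such as versican and aggrecan, on procollagens and on fibrillins. TIMPs block the active site of matrix metalloproteases (MMPs) and, to differing extents, of ADAM and ADAMTS enzymes, and in liver activated stellate cells and myeloid cells are known sources of both proteases and inhibitors.

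The libraries differed in species make-up as well as in treatment. Mouse genes took 0.778% to 1.93% of all gene counts in the siControl libraries (213022 to 913584 mouse counts) and 97.9% to 99.0% in the siAATF libraries (11835898 to 42563694). Levels are given in CPM, counts relative to the library's mouse total after scaling by the trimmed mean of M values (TMM). A count of 0 allows up to 3 counts in a library, which stood for 1.67 to 7.24 CPM in the siControl libraries and for 0.103 to 0.604 in the siAATF libraries, for counting error only. Aatf itself was at 9.62, 2.41 and 12.8 CPM in siControl and at 13.2, 22.0 and 18.8 in siAATF (fitted log2 fold change 0.93), so directions are given for the libraries labelled siAATF. The 8 hepatocyte markers summed to 2881 to 7216 CPM in siControl and 32814 to 103670 in siAATF, and all 8 were called higher. In the other direction, the 12 activated fibroblast markers summed to 9324 to 12872 against 564 to 1563 CPM, the 8 tumor endothelial markers to 615 to 888 against 56.8 to 144 and the 6 macrophage markers to 784 to 2150 against 64.1 to 200. Of the 12 fibroblast markers 11 were called lower. The other, Fn1, was at 895, 620 and 742 CPM in siControl and made up most of the siAATF sums, at 617, 495 and 1483. Markers of liver sinusoidal endothelium (52.9 to 124 against 69.7 to 153 CPM) and of Kupffer cells (16.9 to 110 against 78.6 to 133 CPM) overlapped between the groups. The 6 neutrophil markers summed to 90.6, 1897 and 1399 CPM in siControl against 2.79, 2.22 and 137 in siAATF, which overlap, and 5 of the 6 were called lower (median log2 fold change -4.40). The 4 mural markers summed to 166 to 172 against 107 to 128 CPM and the 6 quiescent stellate markers to 119 to 147 against 39.3 to 79.1, with 3 and 2 of them called lower. No marker of these 9 lists was at 0 in every library of a group. In bulk RNA fewer cells of a type and less RNA per cell cannot be told apart, and the treatment and the species make-up cannot be told apart either, so their part in the values given here was not tested.

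Promoter sequence was available for 8 of the 10 genes (RefSeq, GRCm38.p6) and is shown because the 10 genes were lower together in the siAATF libraries. The 100 bases before the transcription start are printed for the proteases with the largest and the smallest fitted difference, Adam8 and Adamts1, and for the 3 inhibitors. Capitals mark the GC box, the letters GGGCGG or their reverse complement, which zinc finger factors of the SP and KLF families bind.
Adam8, chr7:139992563-139992662 (-): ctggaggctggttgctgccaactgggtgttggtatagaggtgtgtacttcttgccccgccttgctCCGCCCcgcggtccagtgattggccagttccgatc
Adamts1, chr16:85803114-85803213 (-): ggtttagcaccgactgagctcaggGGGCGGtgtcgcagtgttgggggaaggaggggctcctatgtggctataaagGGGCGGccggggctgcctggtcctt
Timp1, chrX:20870066-20870165 (+): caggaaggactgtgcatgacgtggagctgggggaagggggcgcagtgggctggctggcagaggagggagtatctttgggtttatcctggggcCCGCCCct
Timp2, chr11:118355412-118355511 (-): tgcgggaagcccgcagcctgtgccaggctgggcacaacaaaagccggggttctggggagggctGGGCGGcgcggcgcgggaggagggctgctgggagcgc
Timp3, chr10:86300312-86300411 (+): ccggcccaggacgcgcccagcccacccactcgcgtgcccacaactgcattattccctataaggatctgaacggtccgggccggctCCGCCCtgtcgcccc
The GC box was present within 250 bases before the start of 6 of the 8 genes (Adam8, Adamts1, Adamts9, Timp1, Timp2 and Timp3), and in 32.74% of 32851 mouse promoters of that length. The 8 genes had 10 promoters between them, so a number of genes and a share of promoters are not the same measure. Of 8 other motifs searched on both strands, the AP-1 letters TGANTCA were found for Adam19 (6.749% of all promoters), the TEAD letters GGAATG for Adam19 and Timp1 (12.64%), the RUNX letters TGTGGT for Adam19 (14.05%) and TATAAA for Adamts1 (12.37%). The ETS letters CCGGAAG (6.907% of all promoters), the SMAD letters CAGACA (17.13%), the NF-kB site (0.14%) and the CRE letters TGACGTCA (1.546%) were found for none of the 8 genes. These letters are matches in a sequence and do not show that a factor bound there.

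All 10 genes had lower CPM in each of the 3 siAATF libraries than in any of the 3 siControl libraries. Such a pattern was seen in 18.1% of the 18018 genes tested, and 14.4% of them were called lower at an adjusted p under 0.05 and 17.6% higher. All 10 genes passed the same call, which follows from how they were chosen. When libraries were scaled to 8 non-parenchymal markers (described further on), 4 of the 10 passed it, beside 1.28% of all genes. Both counts come from the values seen before the genes were chosen, so neither is a test of them. Their fitted log2 fold changes, siAATF over siControl, ran from -7.88 to -3.07 with a median of -4.30, beside a median of 0.50 over all genes tested. Summed over the 10 genes, the level was 1391, 1156 and 1383 CPM in the siControl libraries and 75.0, 57.4 and 38.1 in the siAATF libraries.

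**Figure D1:**
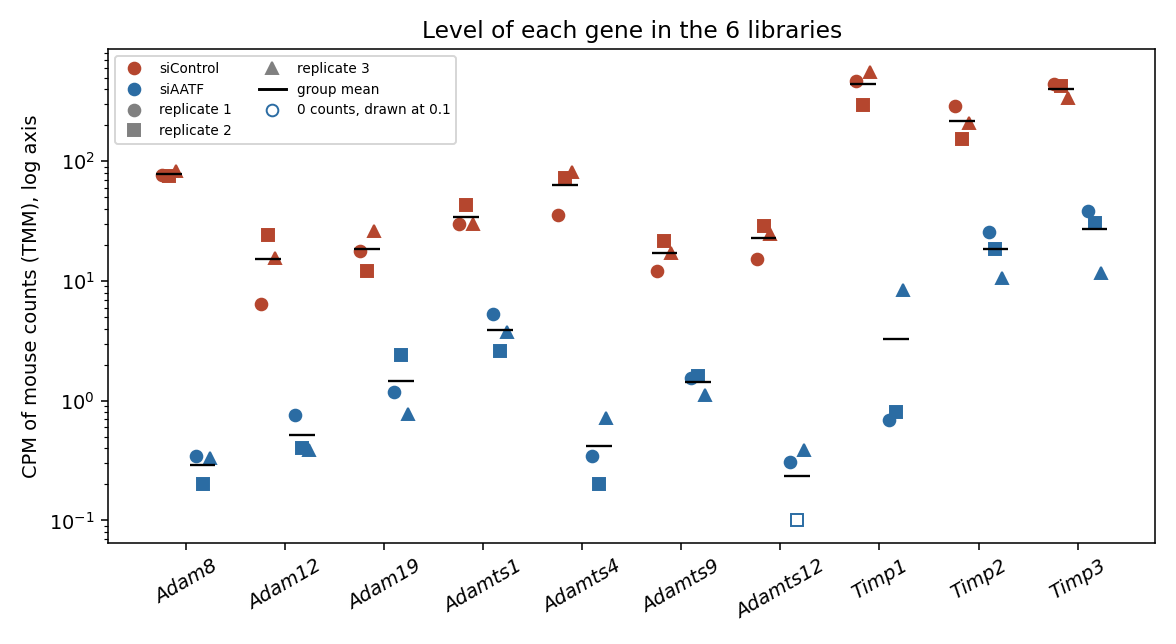
Level of each of the 10 genes in each library, as CPM of mouse counts (TMM) on a log axis. Red points are siControl and blue points siAATF libraries, shapes mark the replicate, bars are group means of 3 libraries, and a count of 0 is drawn open at 0.1. Blue points lie below the red points for every gene, and Timp1 has 1 siAATF library at 8.42 CPM far above the other two at 0.689 and 0.806.

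Among the ADAM proteases, Adam8, a sheddase of neutrophils and macrophages, had the largest difference of the 10 genes in the TMM fit of all libraries. It had 96, 31 and 148 counts in the siControl libraries and 10, 1 and 6 in the siAATF libraries, although the latter were sequenced far more deeply in mouse RNA. Its level was 77.0, 74.8 and 82.5 CPM in siControl and 0.345, 0.201 and 0.332 in siAATF, which is 78.1 ± 3.94 against 0.293 ± 0.0794 (SD, n = 3 each). The siControl libraries lay close together and far above every siAATF library. The fitted log2 fold change was -7.88 (SE 0.46), and 37 of the 18018 genes tested had a lower one. Timp1 had a lower one than Adam8 after thinning to the smallest total (-7.63 against -7.40) and without siAATF replicate 3 (-9.14 against -7.84). The Adam8 gene lies on chromosome 7 at 139558845 to 139572475 on the minus strand (GRCm39).

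Adam12, known as meltrin alpha and made by activated fibroblasts, was at 6.42, 24.1 and 15.6 CPM in siControl and at 0.758, 0.403 and 0.388 in siAATF. These values rest on 8, 10 and 28 counts against 22, 2 and 7. The siControl libraries spread over a wider range than for Adam8, and the lowest of them was still above every siAATF library. The fitted log2 fold change was -4.70 (SE 0.67). Adam19, or meltrin beta, which can shed neuregulin, was at 17.6, 12.1 and 26.2 CPM in siControl and at 1.17, 2.42 and 0.776 in siAATF, with a fitted log2 fold change of -3.86 (SE 0.55). Its counts were 22, 5 and 47 against 34, 12 and 14. Adam8 and Adam12 lie on chromosome 7, Adam12 at 133484928 to 133826826 on the minus strand, and Adam19 on chromosome 11 at 45946819 to 46038170 on the plus strand.

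Among the ADAMTS proteases, Adamts4, an aggrecanase, showed the largest difference. Its counts were 44, 30 and 146 in siControl against 10, 1 and 13 in siAATF. The level was 35.3, 72.4 and 81.3 CPM against 0.345, 0.201 and 0.720, or 63.0 ± 24.4 against 0.422 ± 0.268 (SD, n = 3 each). The family was thus not equally far apart between the groups, since Adamts1 differed least of all 10 genes. Adamts1, which cuts versican and aggrecan, was at 29.7, 43.4 and 30.1 CPM in siControl and at 5.31, 2.62 and 3.71 in siAATF, or 34.4 ± 7.83 against 3.88 ± 1.35 (SD, n = 3 each). The fitted log2 fold changes were -7.04 (SE 0.56) for Adamts4 and -3.07 (SE 0.41) for Adamts1. Adamts4 lies on chromosome 1 at 171077990 to 171088206 on the plus strand and Adamts1 on chromosome 16 at 85590715 to 85600001 on the minus strand.

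Adamts12, an enzyme that cuts cartilage oligomeric matrix protein, was at 15.2, 29.0 and 24.5 CPM in siControl. In siAATF it had 9, 0 and 7 counts, which is 0.310, 0 and 0.388 CPM. The count of 0 in siAATF replicate 2 allows up to 0.604 CPM on this scale, so its 3 siAATF libraries cannot be ordered. The fitted log2 fold change was -6.20 (SE 0.62). Adamts9, another versican-cutting enzyme, was at 12.0, 21.7 and 17.3 CPM in siControl and at 1.55, 1.61 and 1.11 in siAATF, with a fitted log2 fold change of -3.54 (SE 0.50). Adamts12 lies on chromosome 15 at 11064895 to 11349317 on the plus strand and Adamts9 on chromosome 6 at 92749680 to 92920473 on the minus strand.

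Among the inhibitors, Timp1, which blocks most soluble MMPs and is made by stellate cells and fibroblasts in fibrotic liver, had the highest mean level in siControl, although Timp3 was above it in siControl replicate 2. It was at 467, 297 and 558 CPM there and at 0.689, 0.806 and 8.42 in siAATF, or 441 ± 133 against 3.31 ± 4.43 (SD, n = 3 each). The groups did not overlap, and siAATF replicate 3, with 152 Timp1 counts against 20 and 4, stood above the other two siAATF libraries. The fitted log2 fold change was -7.00 (SE 0.97), and -9.14 without siAATF replicate 3. The same library was high in Saa1, an acute phase gene of hepatocytes named here after its values were seen, with 104, 1565 and 39647 CPM in the siAATF libraries in replicate order. Its 6 neutrophil markers also summed to more, with 137 CPM against 2.22 and 2.79 in the other two siAATF libraries. So did its 6 macrophage markers, with 200 CPM against 92.0 and 64.1. Its 12 activated fibroblast markers summed to 1563 CPM against 781 and 564. Most of each fibroblast sum was Fn1, at 617, 495 and 1483 CPM in siAATF replicates 1, 2 and 3. Col1a1 was at 14.4, 9.47 and 9.20 CPM in the same libraries, so this sum does not show that fibroblast markers in general were high in replicate 3. The part of any of these in the Timp1 value was not tested. Timp1 lies on chromosome X at 20736405 to 20740974 on the plus strand.

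Timp3, which stays bound to the matrix and inhibits ADAM17, ADAMTS4 and ADAMTS5, was at 442, 427 and 338 CPM in siControl and at 38.7, 30.6 and 11.6 in siAATF. Timp2, which also takes part in the activation of the MMP2 proenzyme at the cell surface, was at 289, 154 and 210 CPM in siControl and at 25.9, 18.5 and 10.6 in siAATF. For both genes siAATF replicate 3, the library highest in Timp1, was the lowest of the 3 siAATF libraries. The fitted log2 fold changes were -3.90 (SE 0.54) for Timp3 and -3.57 (SE 0.49) for Timp2. Timp3 lies on chromosome 10 at 86136236 to 86185370 on the plus strand and Timp2 on chromosome 11 at 118191887 to 118246332 on the minus strand. Timp1 and Timp3 lie inside Syn1 and Syn3 on the opposite strand and share 0 exon bases with them. Timp2 shares 332 of 4049 exon bases with Cep295nl, which lies on the same strand and had 5 counts over all libraries. Adam19 shares 587 exon bases with Gm16033 and 480 with Gm16034, antisense RNAs at 0 counts, and Adam8 shares 46 with Gm16201, at 3 counts. Adamts9, with 128 counts over all libraries, shares 424 exon bases with Gm15737, at 0 counts, and 166 with A730049H05Rik, at 62 counts on the opposite strand. Whether counting used strand is not given in the sources used here, so reads in bases shared by genes on opposite strands cannot be told apart. Reads in the bases that Timp2 shares with Cep295nl could not be told apart by strand in either case.

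To compare genes with each other, counts were divided by gene length and scaled to the same sum in every library, as TPM of mouse genes. In siControl the order of mean TPM was Timp1 at 1851 ± 607 (SD, n = 3), Timp3 at 315 ± 30.8, Timp2 at 198 ± 53.8, Adam8 at 93.3 ± 9.12 and Adamts4 at 49.4 ± 21.1, followed by Adamts1 at 26.2 ± 6.23. Neighbors from Timp1 to Adamts4 did not overlap in their 3 libraries, while Adamts4 and Adamts1 did. Adam19, Adamts12, Adamts9 and Adam12 came last, at 10.9, 10.01, 7.94 and 7.54 mean TPM, and each overlapped the next. In siAATF the order was Timp3 at 4.84 ± 3.50, Timp2 at 3.85 ± 2.57, Timp1 at 2.86 ± 3.76 and Adamts1 at 0.686 ± 0.424, and each overlapped the next. The remaining 6 genes were at 0.0242 to 0.173 mean TPM, with Adam19 the highest and Adamts12 the lowest, and each overlapped the next. Adam8 and Adamts4 thus led the proteases in siControl, and Adamts1 led them in siAATF, where all 3 of its libraries were above those of the next gene, Adam19.

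The make-up of the set differed as well. Of the TPM summed over the 10 genes, Timp1 took 71.5%, 64.0% and 77.4% in the siControl libraries and 4.53%, 6.85% and 59.5% in the siAATF libraries. Timp2 took 7.80% ± 1.71 in siControl and 29.4% ± 11.4 in siAATF (SD, n = 3 each), without overlap. Timp3 took 12.95% ± 4.27 against 37.4% ± 19.0, and here siAATF replicate 3, at 15.5%, lay within the range of the siControl libraries. The 3 inhibitors together made up 91.7% ± 2.698 and 90.5% ± 0.893 of the summed TPM, and the groups overlapped. The ratio of inhibitor to protease TPM was 15.3, 7.84 and 12.4 in siControl and 8.62, 9.39 and 10.6 in siAATF, again with overlap.

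Within the proteases the shares moved in both directions. The share of Adam8 was 3.74% ± 0.748 in siControl and 0.601% ± 0.0985 in siAATF, and that of Adamts4 was 1.99% ± 0.947 and 0.558% ± 0.335 (SD, n = 3 each). The share of Adamts1 was 1.10% ± 0.528 in siControl and 5.05% ± 1.17 in siAATF, and those of Adam19 and Adamts9 were also above siControl in all 3 siAATF libraries. Adamts4 TPM relative to Adamts1 TPM was 1.21, 1.69 and 2.75 in siControl and 0.0659, 0.0781 and 0.197 in siAATF. Adam8 TPM relative to Adam19 TPM was 8.94, 12.7 and 6.45 in siControl and 0.602, 0.171 and 0.878 in siAATF. Neither ratio depends on how the libraries were scaled, and neither overlapped between the groups. Each sets the gene with the largest fitted difference of its family over the gene with the smallest, so the lack of overlap is a description and not a test. In siAATF replicate 2 Adam8 and Adamts4 had 1 count each.

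**Figure D2:**
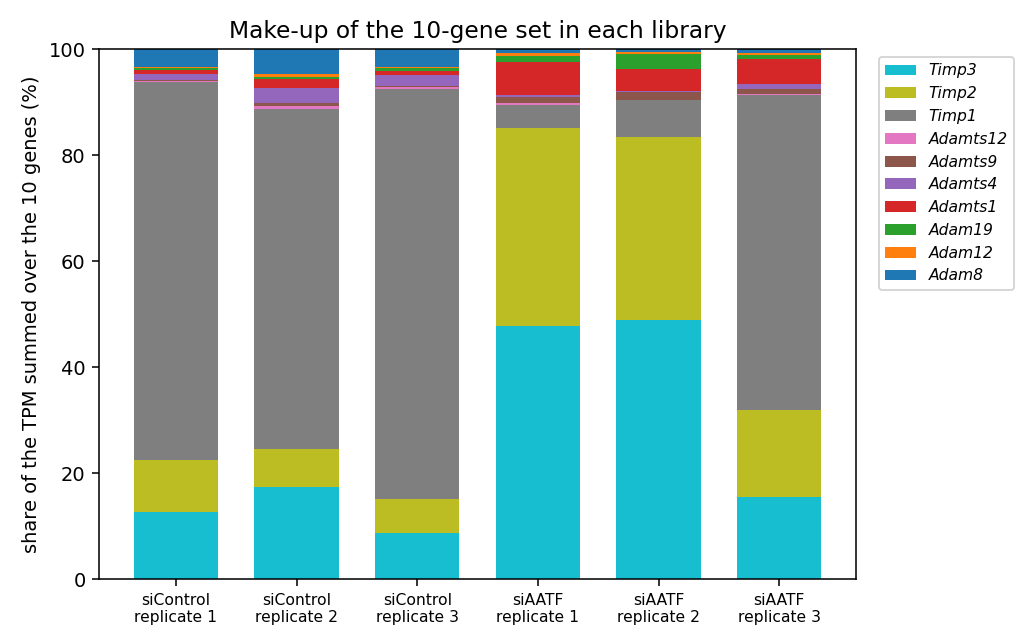
Share of each gene in the TPM summed over the 10 genes, with a stacked bar for each library, in percent. Timp1 fills most of the 3 siControl bars (64.0% to 77.4%) and of the bar of siAATF replicate 3 (59.5%), while Timp2 and Timp3 fill most of the bars of siAATF replicates 1 and 2.

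How far the genes were apart depended on what they were counted against. In CPM of the gene counts of both species, Adam8, Adamts4, Adamts12 and Timp1 were below siControl in all 3 siAATF libraries, with mean levels that were 13.4, 7.33, 4.35 and 7.65 times as high in siControl. For Timp1 the gap was narrow, with 4.49 in siControl replicate 2 and 4.30 in siAATF replicate 3, and without the latter, left out after the data were seen, the mean was 32.6 times as high in siControl. On this scale 5 other genes overlapped between the groups, and Adamts1 was higher in siAATF, with 1.01, 0.658 and 0.999 CPM of all counts in siControl and 3.58, 1.07 and 1.89 in siAATF. The shares of all genes that were lower, overlapping or higher on this scale were not counted, so these numbers of genes have no background beside them. The 10 genes together gave 47.5, 17.5 and 45.9 CPM of all counts in siControl and 50.6, 23.6 and 19.4 in siAATF, which overlap.

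Counts were also set against 8 general markers of leukocytes, endothelium and mesenchyme (Ptprc, Csf1r, Itgam, Pecam1, Cdh5, Kdr, Pdgfra and Pdgfrb), whose summed counts were 898, 346 and 1605 in siControl against 3591, 326 and 1403 in siAATF. This measure was chosen after the data were seen. Per 1000 counts of these markers, Adam8 was at 107, 89.6 and 92.2 in siControl and 2.78, 3.07 and 4.28 in siAATF. Adamts4 was at 49.0, 86.7 and 91.0 against 2.78, 3.07 and 9.27, and Adamts12 at 21.2, 34.7 and 27.4 against 2.51, 0 and 4.99. Timp1 was at 648, 355 and 624 against 5.57, 12.3 and 108, and Adam12 at 8.91, 28.9 and 17.4 against 6.13, 6.13 and 4.99. These 5 genes were thus lower in every siAATF library on this scale too, but the gap of Adam12 was narrow, with 8 counts behind its lowest siControl value and 2 behind its highest siAATF value. The share of all genes with this pattern was not counted on this scale, and the 18.1% given for CPM of mouse counts does not carry over.

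The other 5 genes overlapped between the groups when set against the same markers. Adamts1 was at 41.2, 52.0 and 33.6 in siControl and 42.9, 39.9 and 47.8 in siAATF, with means of 42.3 and 43.5. Timp3 was at 614, 512 and 378 against 312, 466 and 150, and Timp2, Adam19 and Adamts9 overlapped likewise. With the edgeR fit scaled to these markers, the log2 fold change was -4.53 for Adam8, -3.56 for Adamts4, -3.51 for Timp1, -2.90 for Adamts12 and -1.25 (SE 0.92) for Adam12, and between -0.29 and 0.40 for the other 5 genes. This scaling put the median of all genes at 4.07 and library size alone put it at -1.30, so a value on either scale is read relative to those medians.

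**Figure D3:**
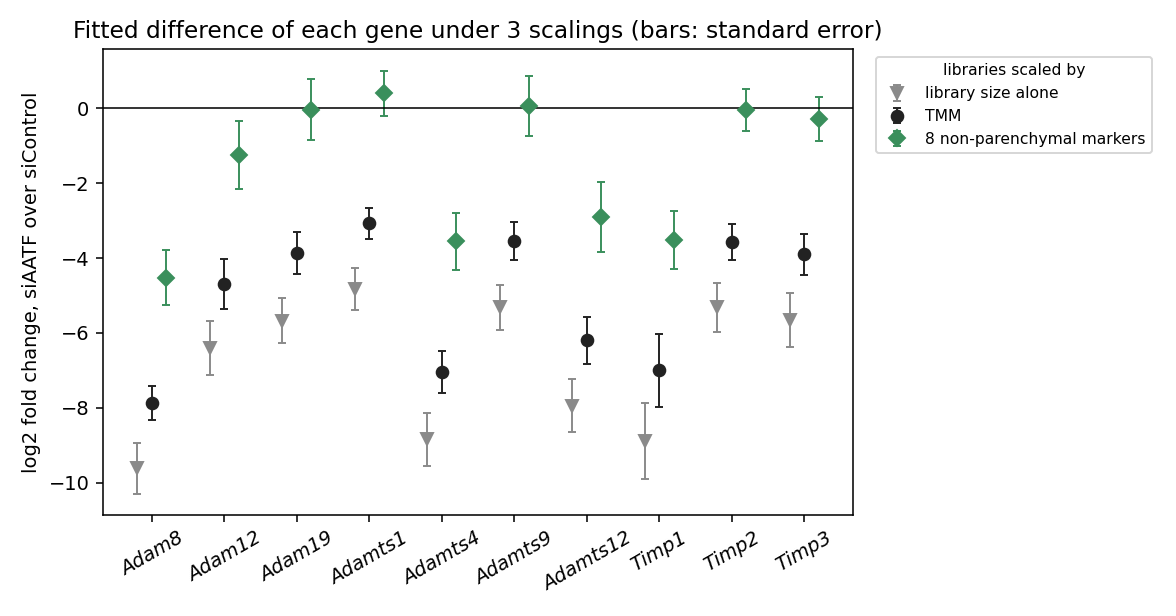
Fitted log2 fold change of each gene, siAATF over siControl, with libraries scaled by size alone (grey), by TMM (black) or by 8 non-parenchymal markers (green), and bars for the standard error of the fit to 3 libraries a group. Adam8, Adamts4, Adamts12 and Timp1 stay at or below -2.90 under every scaling, while the green values of Adam19, Adamts1, Adamts9, Timp2 and Timp3 lie between -0.29 and 0.40.

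The other genes of these families and of their pathway were counted in 8 lists of 122 genes, of which 121 were found by name and 99 were tested. With edgeR's quasi-likelihood fit and p-values adjusted by Benjamini-Hochberg over all 18018 genes, 49 of the 99 were called lower in siAATF (49.5%, beside 14.4% of all genes) and 12 higher (12.1%, beside 17.6%). The lists were drawn up with earlier results of these data known, and their median log2 fold change was -1.57. Without siControl replicate 3, the library with the most mouse counts of its group, 39 were called lower and 5 higher, beside 9.7% and 9.08% of all genes then tested. Scaled to the 8 non-parenchymal markers, 14 of the 99 were called lower and 53 higher, beside 1.28% and 79.8% of all genes. With library size alone 73 were called lower and 1 higher, beside 40.3% and 4.15% of all genes. Counts under the marker scaling are therefore read against those shares of 1.28% and 79.8%.

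Of 9 other ADAM genes tested, 3 were called lower and 1 higher (33.3% and 11.1%, beside 14.4% and 17.6% of all genes). Adam15, a disintegrin protease of endothelium and other cells, was at 77.6 ± 6.57 CPM in siControl and 2.78 ± 1.23 in siAATF (SD, n = 3 each), a log2 fold change of -4.73 (SE 0.43, edgeR adjusted p = 2.73e-05). The main sheddases fell less. Adam17, which releases tumor necrosis factor, was at 28.8 ± 10.3 against 9.19 ± 1.11 CPM (log2 fold change -1.70, SE 0.38, edgeR adjusted p = 0.00434). Adam10, which cuts Notch receptors, was at 67.3 ± 18.6 against 24.5 ± 5.40 (log2 fold change -1.47, SE 0.37, edgeR adjusted p = 0.00915), and its call was lost without siControl replicate 3. Adam11, a family member without protease activity, rose from 14, 0 and 13 counts in siControl to 729, 177 and 1228 in siAATF (log2 fold change 2.55, SE 0.60, edgeR adjusted p = 0.00581). It was not called higher with library size alone or after thinning to the smallest total. Under the marker scaling, Adam15 was still called lower, and 7 of the 9, with Adam10 and Adam17 among them, were called higher, a share near the 79.8% of all genes called higher there.

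Of 15 other ADAMTS genes 8 were tested. Of these, 4 were called lower and 1 higher, beside 14.4% and 17.6% of all genes. The procollagen N-proteinases Adamts2 and Adamts14 had log2 fold changes of -4.24 (SE 0.45) and -3.78 (SE 0.74), Adamts2 at 137 ± 37.0 CPM in siControl and 7.18 ± 2.32 in siAATF. The aggrecanase Adamts5 and the fibrillin-binding Adamts10 fell, with log2 fold changes of -2.21 and -1.997 and edgeR adjusted p of 0.00216 and 0.00741, and the call for Adamts10 was lost without siControl replicate 3. With the marker scaling the 4 lower calls were lost and 3 of the 8, Adamts10 among them, were called higher, beside 79.8% of all genes. Adamts13, which cuts von Willebrand factor and is made by hepatic stellate cells, had 0 counts in all 3 siControl libraries and 83, 16 and 14 in siAATF. Its call (edgeR adjusted p = 0.0439) was lost without any 1 of the siControl libraries, siAATF replicate 1 or siAATF replicate 2, and with all libraries under RLE size factors, library size alone, thinning or DESeq2. It was at 2.86, 3.22 and 0.776 CPM in siAATF, where a count of 0 allows 1.67 to 7.24 CPM in a single siControl library and 0.868 over the 3 together. Of the 5 ADAMTS-like genes tested, matrix proteins that resemble ADAMTS without the protease domain, 4 were called lower, beside 14.4% of all genes. They were Adamtsl5 (log2 fold change -3.46), Adamtsl1 (-3.34), Adamtsl4 (-1.98) and Adamtsl2 (-1.76). Leaving out siControl replicate 1 or 2 left 2 called lower. With the marker scaling the 4 lower calls were lost and 2 of the 5 were called higher, beside 79.8% of all genes.

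The other inhibitors did not share 1 direction. A2m, a plasma trap for proteases, was at 14.7 ± 10.96 CPM in siControl and 1.96 ± 2.77 in siAATF (log2 fold change -2.89, SE 0.91, edgeR adjusted p = 0.0281), and like Timp1 was highest in siAATF replicate 3, at 5.15 CPM against 0.517 and 0.201. The call for A2m was lost without siAATF replicate 2, siControl replicate 2 or siControl replicate 3. Its hepatocyte-made relatives Pzp and Mug1 rose by log2 fold changes of 3.05 (SE 0.76) and 3.32 (SE 0.66), beside hepatocyte markers with a median of 4.24, and the call for Pzp was lost without siControl replicate 2 or 3. Reck, a membrane-anchored inhibitor, had a log2 fold change of -0.97 (SE 0.75, edgeR adjusted p = 0.339) and was not called. With the marker scaling A2m lost its call and 5 of the 6 inhibitors tested were called higher, a share near the 79.8% of all genes. Timp4, the fourth TIMP, had 1 count over all 6 libraries and was not tested.

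Among the MMPs, the enzymes that TIMPs inhibit, 9 of 15 tested were called lower and 1 higher (60.0% and 6.67%, beside 14.4% and 17.6% of all genes). Macrophage elastase Mmp12 was at 44.3 ± 35.6 CPM in siControl and 0.579 ± 0.803 in siAATF (log2 fold change -6.11, edgeR adjusted p = 0.00025). Stromelysin Mmp3 and gelatinase Mmp2 had log2 fold changes of -5.46 and -5.31, and Mmp10 had counts of 2, 1 and 11 in siControl and of 0 in every siAATF library, with a call that was lost without siControl replicate 3. Mmp15, a membrane-type MMP, was called higher (log2 fold change 1.44, edgeR adjusted p = 0.0345), though its CPM overlapped between the groups and the call was lost without siAATF replicate 1 or siControl replicate 2 or 3. With the marker scaling 3 MMPs, Mmp3, Mmp10 and Mmp12, were still called lower, and 3 others of the 15 were called higher, beside 1.28% and 79.8% of all genes.

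The matrix substrates of ADAMTS enzymes had the lowest median of the 8 lists, -6.11, with 9 of 11 tested called lower (81.8%, beside 14.4% of all genes). Col1a1, Col1a2 and Col3a1, the fibrillar procollagens trimmed by Adamts2 and Adamts14, had log2 fold changes of -8.27, -6.71 and -6.67. Thrombospondin 1 (Thbs1), cut by Adamts1, had a value of -7.63 and was at 288 ± 64.8 CPM in siControl and 1.31 ± 0.805 in siAATF. The 3 procollagens are also among the 12 activated fibroblast markers, whose median was -4.73. Of the 9 substrates, 8 were still called lower with the marker scaling, and 2 of the 11 tested were called higher, beside 1.28% and 79.8% of all genes.

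Of 26 membrane proteins known to be shed by ADAM enzymes, 13 were called lower and 3 higher, beside 14.4% and 17.6% of all genes. The share called higher was thus below the general share. Counts of the growth factor Ereg were 21, 6 and 53 in siControl against 2, 0 and 0 in siAATF, and Tnf had 14, 4 and 24 against 0, 0 and 2. Cd44, a hyaluronan receptor, and Cx3cl1, a membrane chemokine, had log2 fold changes of -4.72 and -4.53. The macrophage receptor Cd163 went the other way, with 60, 21 and 106 counts in siAATF and 0 in each siControl library. It was at 2.07 to 5.87 CPM in siAATF, where a count of 0 allows 1.67 to 7.24 CPM in a single siControl library and 0.868 over the 3 siControl libraries together. Its call was lost without siControl replicate 3. The adhesion protein Cdh2 and the interleukin 6 receptor Il6ra rose by log2 fold changes of 1.89 and 1.43, and the call for Il6ra was lost without siControl replicate 3. With the marker scaling 2 of the 26, Ereg and Tnf, were called lower and 14 higher, beside 1.28% and 79.8% of all genes. Cdh5, among the 26, is also among the 8 markers that set this scaling, so its loss of a lower call there is partly fixed by the scaling.

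Partners of the proteases, such as the iRhom proteins and tetraspanins that carry ADAM17 and ADAM10 to the surface and the convertases that remove their prodomains, were called lower in 6 of 19 cases and higher in 4. Those shares, 31.6% and 21.1%, stand beside 14.4% and 17.6% of all genes, so the higher calls were near the general share. Rhbdf1, an iRhom, and Pofut2, which adds fucose to thrombospondin repeats, fell, with log2 fold changes of -1.83 and -1.43. Tspan5 and Fbln1 had log2 fold changes of -2.24 and -2.19, with calls that were each lost without at least 1 library. Tspan33 and Sdc4 rose by 2.65 and 2.21 and the convertases Pcsk5 and Pcsk6 by 2.03 and 1.59, with calls lost without siControl replicate 3 for both convertases and also without siControl replicate 2 or siAATF replicate 1 for Pcsk6. The number called lower ranged from 2 without siControl replicate 3 to 5 without siAATF replicate 3, and with the marker scaling the 6 lower calls were lost and 17 of 19 were called higher, beside 79.8% of all genes.

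**Figure D4:**
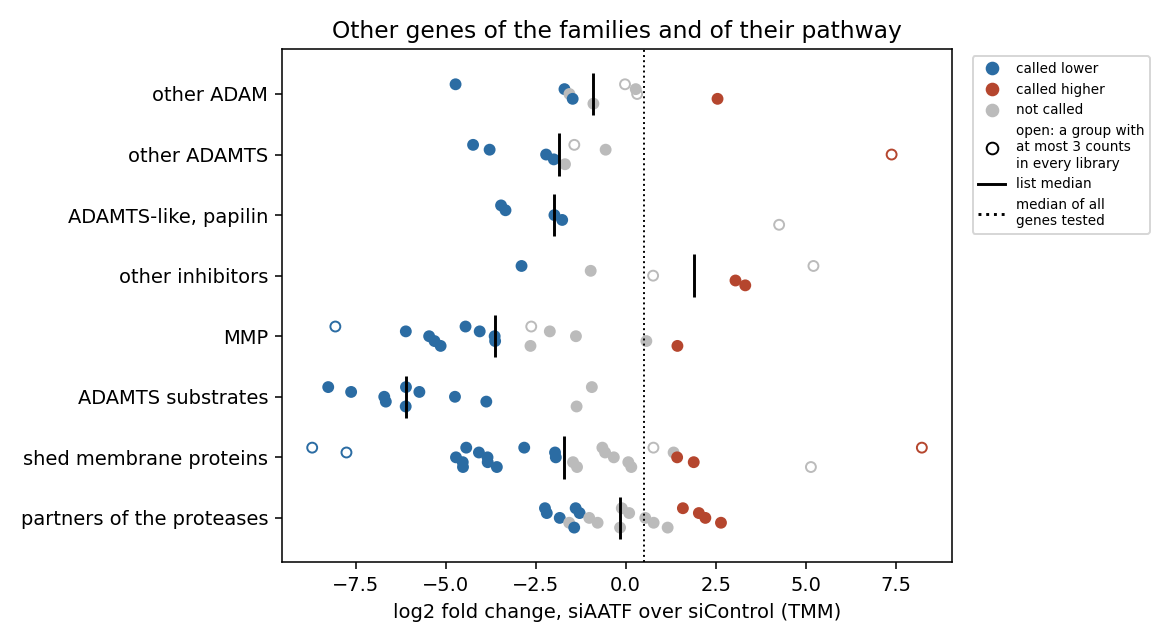
Fitted log2 fold change, siAATF over siControl (TMM), of the 99 tested genes in 8 lists of related genes, with 1 point for each gene. Blue genes were called lower, red higher and grey neither (edgeR, adjusted p under 0.05), open points have at most 3 counts in every library of a group, so their position depends on the fit, black bars are list medians and the dotted line is the median of all genes tested. The ADAMTS substrates lie farthest to the left, with a median of -6.11, and the other inhibitors lie on both sides.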

How the data were processed

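Bulk liver RNA was sequenced in 6 libraries. The deposited values are raw gene counts, 1 table for mouse and 1 for human. Per the study's methods the authors trimmed reads, aligned them with STAR 2.7.11 to both genomes together, discarded reads mapping to several places or both species, and counted genes with featureCounts 2.0.1. Whether counting used strand is not given in the sources used here. Names of 56323 of 56884 mouse identifiers came from gencode release 39. Coordinates and lengths are those of the deposited table.

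Members and gene lists were chosen with earlier results of these data known. The fit used edgeR 4.0.16 (R 4.3.3), TMM, genes with at least 10 counts in total, group as the only term, and calls at a Benjamini-Hochberg adjusted p under 0.05. Named were all 10 members, up to 4 lowest and 4 highest called genes of each list, and Timp4, Reck, Adam10 and Adam17. On simulated counts, 152 of 200 genes changed by log2 3 were called, and 7 of 16856 unchanged. Apart from those 200 genes the simulated libraries shared 1 profile, so this does not cover errors from the differing make-up of the real groups. p-values measure the spread between these libraries. The human table, without gene names, was used for totals. Alternatives were other scalings, filters, DESeq2 1.42.0, thinning, a replicate block and leaving out each library. Python 3.11.15 with matplotlib 3.10.9 made the tables and figures.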

Additional observations from a re-analysis of the deposited data

How the results depend on the processing

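The 10 genes kept a negative fitted log2 fold change under every alternative except scaling to the 8 non-parenchymal markers, where Adamts1 was at 0.40 and Adamts9 at 0.076. As ratios of mean levels in CPM of all gene counts, siAATF over siControl, Adam19 was at 0.40, Adamts1 at 1.30, Adamts9 at 0.79, Timp2 at 0.67 and Timp3 at 0.45 on the log2 scale, and per 1000 marker counts, chosen after the data were seen, Adamts1 was at 0.041. With at least 10 counts in every library, 3 of the 10 (Adamts1, Timp2 and Timp3) could be fitted. Counts of calls, 2593 lower and 3169 higher over all genes and 49 and 12 in the lists, moved as follows. Library size alone gave 7267 lower and 748 higher, with 1 list gene higher. Marker scaling gave 231 and 14370, with 14 and 53 in the lists. At least 10 counts in every library, which left 3552 genes and 32 list genes to test, gave 873 and 872, with 20 and 6. Thinning to the smallest total, which left 9687 genes, gave 1311 higher, with 4 in the lists. Leaving out each library in turn gave 1722 to 2503 lower and 1611 to 3576 higher over all genes, with 39 to 50 and 5 to 12 in the lists, the lowest each time without siControl replicate 3. Apart from fewer genes or libraries, the cause was not tested. DESeq2 gave 2940 and 3019, with 54 and 11 in the lists. Replicate numbers did not pair the libraries (correlations of same-numbered residuals 0.154, 0.213 and -0.0552), and a replicate block gave 2912 lower and 3854 higher, with 55 and 14 in the lists. The planned test of human orthologs was not run, because the human table holds no gene names. Depth limits low counts, which for the 7 proteases were 0 to 154 in the siAATF libraries and 5 to 148 in siControl.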
